A study of Mus musculus with 9 samples.

Results

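Mouse embryonic stem cells without β-catenin were set against control cells that kept a copy of its gene. The comparison took the 3 arrays titled null and the 3 titled flox, 6 of the 9 arrays of the series, and all 19938 genes whose array feature carries a single gene symbol. For a gene with several features, the brightest by its mean on all 9 arrays stood for it. Flox cells, which the labels call control cells, lack 1 allele of the β-catenin gene Ctnnb1 and carry a floxed copy of the other, and null cells have lost both alleles. All cells came from a mixed S129S6-C57BL/6 background and grew on gelatin until just short of confluence, in medium with 15% serum (FCS) and with leukaemia inhibitory factor at 1000 U/ml. The control cells are thus themselves short of 1 allele, and no cells with both alleles intact were in the comparison. The titles count biological replicates, but the labels do not say whether these were separate lines or cultures of a single line, so genotype and line cannot be told apart and the p-values measure the spread between these cultures. The other 3 arrays, null cells with an added fusion of E-cadherin and α-catenin, entered only the estimate of the spread.

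β-catenin has a structural role and a signalling role. At adherens junctions it ties the tail of a cadherin to α-catenin and so to actin, and in the Wnt pathway it accumulates, enters the nucleus and acts with TCF/LEF factors on their target genes. In embryonic stem cells the pathway is known for favouring self-renewal, in large part by lifting repression by Tcf7l1, and the cells tolerate loss of the protein because plakoglobin can stand in for it at junctions.

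Values were log2 RMA signals, on which a difference of 1 is a 2-fold change. A flox array correlated at 0.935 to 0.941 with a null array over all features, below the 0.995 to 0.997 among flox arrays and the 0.991 to 0.992 among null arrays. Ctnnb1 read 11.13, 11.13 and 11.21 on the flox arrays and 10.55, 10.50 and 10.47 on the null arrays, a fall of 0.65 ± 0.07 (limma standard error, n = 3 arrays per group, adjusted p = 2.82e-05; exact two-sided permutation p = 0.1, the smallest that 3 arrays against 3 can give). The feature covers the whole transcript, so the 63.7% of the flox signal that was left does not measure intact mRNA. In total 11004 genes were called at an adjusted p under 0.05 (percent called 55.2), 5285 higher in null cells (26.5) and 5719 lower (28.7). Since calls were so common, families are described mainly by members that were called and at least 2-fold apart, which were 3045 genes (15.3%), 1003 of them higher (5.03%) and 2042 lower (10.2%). The 3 null arrays all lay above the 3 flox arrays in 35.5% of all genes and all below them in 31.9%, so that groups which do not overlap were common too. The median difference over all genes was 0.06. Genes whose mean lay at or above the median of all features (6.01), called brighter genes below, had a median of -0.13 and the dimmer genes of 0.13. Of the 11285 brighter genes 26.9% were called higher and 43.2% lower, 7.06% and 16.2% by at least 2-fold. The lower quartile of all features was 4.37 to 4.40 on flox arrays and 4.52 to 4.55 on null arrays, and a gene at or below it is called dim, because its distance from background was not measured and a difference from such a level may be understated. In bulk RNA, fewer cells of a type and less RNA per cell cannot be told apart.

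**Figure D1:**
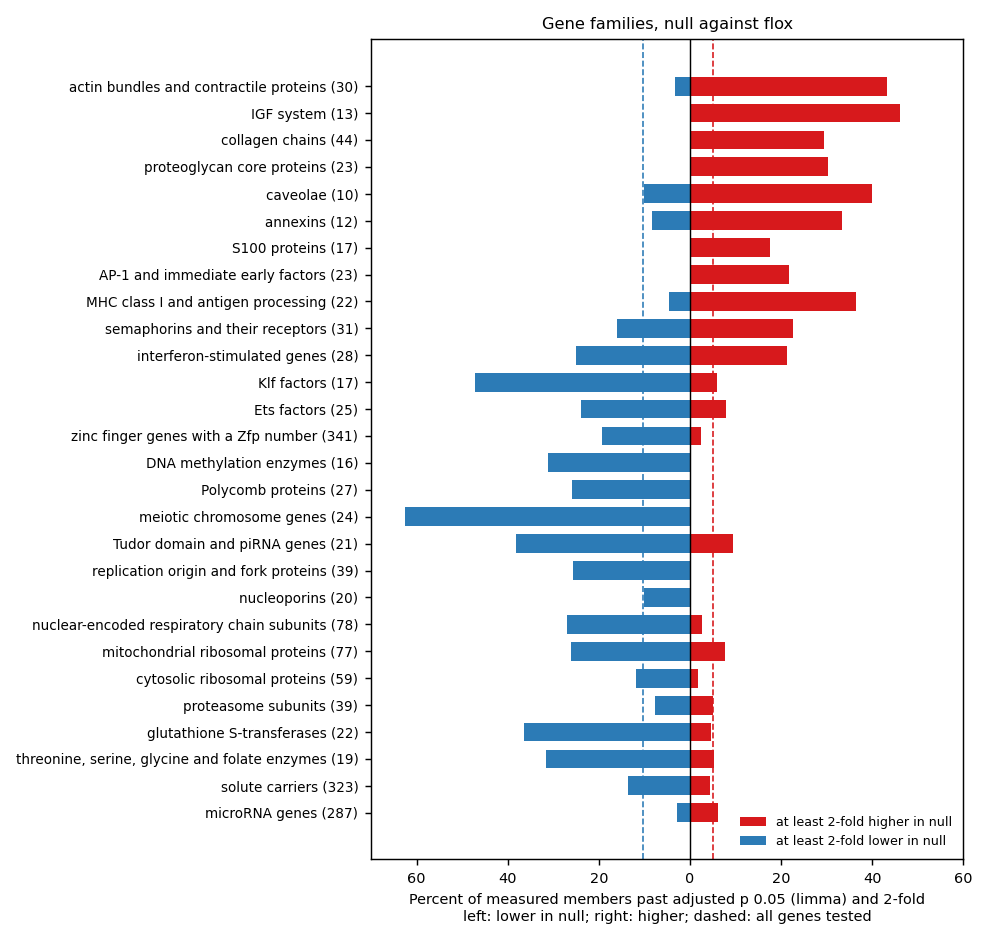
Percent of the measured members of each gene family that were called and at least 2-fold higher (right, red) or lower (left, blue) in null cells, with the number of members in parentheses and dashed lines at 5.03% and 10.2%, the shares over all genes tested. Contractile, insulin-like growth factor and collagen genes extend to the right, and meiotic, Klf and DNA methylation genes to the left.

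Genes of the contractile actin cytoskeleton were among the most raised families. Of 30 measured actins, tropomyosins, myosin light chains, calponins, filamins and their partners, 23 rose and 3 fell, 13 rose at least 2-fold and 1 fell at least 2-fold, with a median of 0.88. Acta2, smooth muscle actin, read 5.78, 6.05 and 5.90 on the flox arrays and 12.22, 11.60 and 11.94 on the null arrays, which is 64.2-fold higher (6.01 ± 0.16, adjusted p = 1.72e-09). Every null array lay more than 5 log2 units above every flox array. Tagln, the actin-bundling protein transgelin, stood at 5.38, 5.26 and 5.30 in flox and at 10.02, 9.78 and 10.36 in null cells (4.74 ± 0.16). Flnc, a filamin that crosslinks actin, rose by 3.21 ± 0.14 and Cald1, caldesmon, which binds actin and myosin, by 3.04 ± 0.14. Vcl, vinculin, which links actin to adhesions, rose from 8.85, 8.86 and 8.89 to 10.52, 10.59 and 10.81 (1.78 ± 0.19), and Myl9, a regulatory light chain of non-muscle myosin, from 6.18, 6.14 and 5.97 to 8.78, 8.59 and 8.85 (2.64 ± 0.18). Both pairs of groups were far apart, and Vcl and Myl9 were chosen after their values were seen. Tagln3, the neuronal transgelin, went the other way and fell by 1.67 ± 0.09.

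The promoters of this family were searched for the CArG box, the element bound by serum response factor. The window ran from 250 bases before to 50 bases after each gene's start in RefSeq's GRCm38.p6 annotation, on both strands, and 15614 of the tested genes had one. A CArG box stood in 254 of these windows (1.63%) and in 6 of the 27 contractile genes that had a window (22.2%). Of those 6 genes 5 rose at least 2-fold, with a median of 1.78, and of the 21 without the element 6 rose and 1 fell at least 2-fold, with a median of 0.45. A match describes the letters and is not evidence of binding. The stretches around the element in 4 of the genes are shown, since their box lies within the window and all 4 rose at least 2-fold, with the box in capitals. Cnn2, calponin 2, rose by 1.49 ± 0.21, and Actc1, cardiac actin, by 1.78 ± 0.16, both chosen after their values were seen.
Myl9, chr2:156775263-156775352, plus strand: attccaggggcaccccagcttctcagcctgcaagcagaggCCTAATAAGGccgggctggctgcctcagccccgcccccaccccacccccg
Actc1, chr2:114052876-114052962, minus strand: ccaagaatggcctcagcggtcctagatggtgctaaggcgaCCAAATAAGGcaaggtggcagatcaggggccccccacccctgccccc
Cnn2, chr10:79988504-79988593, plus strand: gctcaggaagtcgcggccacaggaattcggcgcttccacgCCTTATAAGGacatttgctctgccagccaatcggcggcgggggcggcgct
Vcl, chr14:20929148-20929220, plus strand: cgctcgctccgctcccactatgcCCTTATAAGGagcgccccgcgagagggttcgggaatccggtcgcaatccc

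Motor and adaptor families of the actin system split within themselves. Of 38 myosin heavy chains 14 rose and 11 fell, and the non-muscle heavy chains Myh9 (1.33 ± 0.11) and Myh10 (1.56 ± 0.20) were both at least 2-fold higher. LIM domain adaptors, which sit at adhesions and stress fibres, were split as well, with Lpp 7.03-fold and Fhl2 4.63-fold higher and Crip1 6.51-fold lower.

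Filaments outside actin also changed in composition. Of 61 intermediate filament genes 27 rose and 7 fell. Nes, nestin, rose by 2.38 ± 0.51 and Ina, a neuronal filament protein, fell by 2.76 ± 0.29, from 10.68, 10.57 and 10.57 to 8.41, 7.83 and 7.30. Of 16 tubulins 3 rose and 8 fell, with 4 at least 2-fold lower, among them Tubb2b (1.83 log2 units lower, ± 0.16) and Tubg1, the γ-tubulin of microtubule nucleation, which fell by 1.56 ± 0.11. Kif1a, a transport kinesin, stood 8.10-fold higher. Septin1, of the septin filaments, dropped by 3.98 ± 0.11, from 9.90, 9.83 and 9.85 to 5.97, 5.82 and 5.86. That fall of 15.8-fold was the widest of the 12 septins measured, of which 4 rose and 5 fell.

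Membrane-binding calcium proteins and caveolae were raised. Of 12 annexins, which bind phospholipid in a calcium-dependent way, 7 rose and 1 fell. Anxa1 went from 5.04, 4.97 and 5.07 to 11.35, 11.39 and 11.33, an 80.8-fold rise with an SD of 0.03 over the null arrays. Anxa3 rose 13.4-fold, Anxa2 10.2-fold and Anxa5 5.75-fold, and Anxa11 fell 2.82-fold. Of 17 S100 proteins, small calcium sensors of which several partner with annexins, 11 rose and 1 fell, with S100a6 at 2.75 ± 0.22, S100a4 at 1.71 ± 0.13 and S100a10, the partner of annexin A2, at 1.62 ± 0.17. The brighter genes of chromosome 3, which holds these S100 genes and Anxa5, had a median difference of 0.15. Caveolae, the flask-shaped pits of the plasma membrane, had 6 of 10 genes raised. Cav1, their main coat protein, was dim in flox cells at 4.33, 4.37 and 4.37 and stood at 8.09, 8.08 and 7.49 in null cells. Cavin1 (1.23 ± 0.12), Cavin2 (2.14 ± 0.27) and Ehd2 (1.42 ± 0.18), which shape and anchor the pits, rose too, and Pacsin2 fell by 1.09 ± 0.08.

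**Figure D2:**
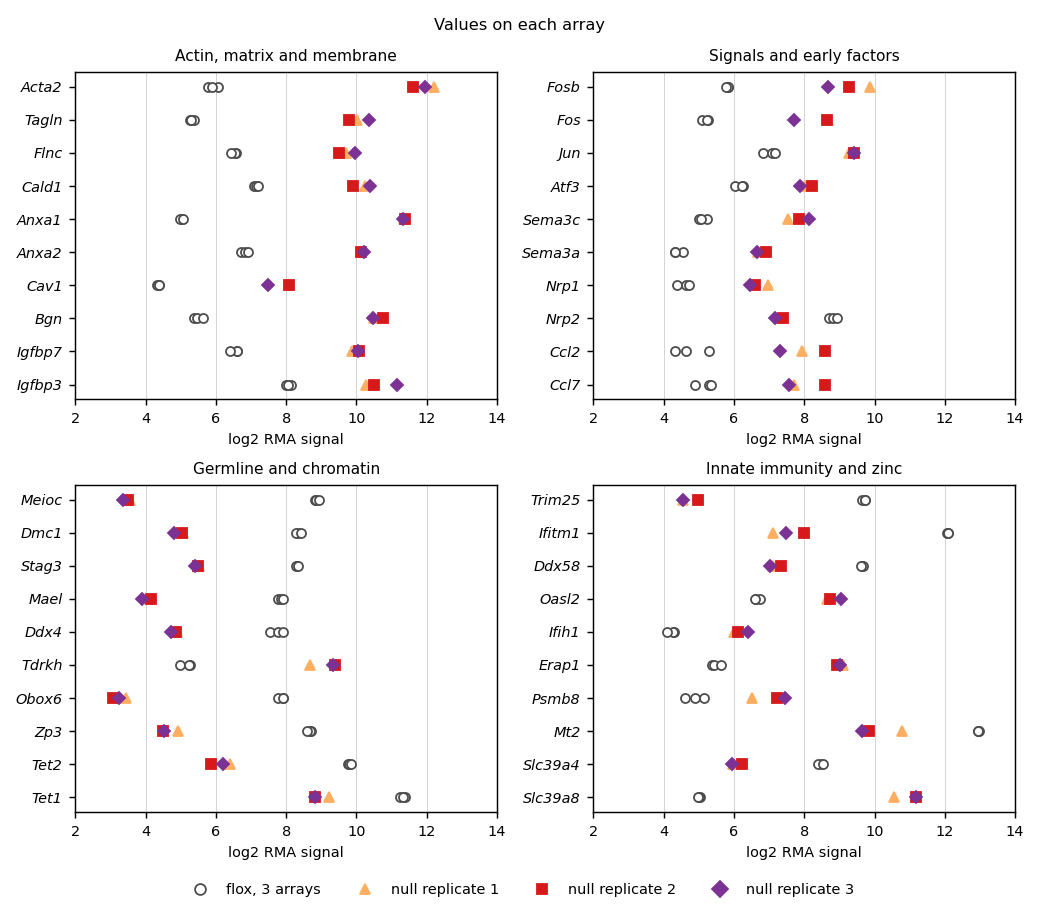
Log2 RMA signal of 40 genes on each array, grouped by function, with open circles for the 3 flox arrays and a symbol of its own for each null replicate. In every gene drawn the null arrays lie wholly above or wholly below the flox arrays, for example Acta2, with means of 11.92 in null and 5.91 in flox cells.

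Most collagen chains and proteoglycan core proteins rose. Of 44 collagen chains 37 rose and 1 fell, with 13 at least 2-fold higher, 0 at least 2-fold lower and a median of 0.66. Col1a1 and Col1a2, the chains of collagen I, stood 19.4-fold and 28.3-fold higher. Col12a1, a collagen on the surface of fibrils, went from 4.59, 4.66 and 4.62 to 9.20, 9.67 and 9.43. Each of its null arrays lay more than 4 units above the flox arrays. Of 23 proteoglycan core proteins 14 rose and 5 fell. Bgn, biglycan, rose from 5.38, 5.47 and 5.63 to 10.50, 10.76 and 10.47 (5.08 ± 0.12), and Dcn, decorin, from 4.17, 4.30 and 4.13 to 8.08, 10.45 and 8.54 (4.82 ± 0.49). Null replicate 2 was far above the other null arrays for decorin, and all 3 were above flox. Gpc4, a glypican, rose by 1.91 ± 0.19 and Sdc3, a syndecan, by 1.74 ± 0.12. Has2, which makes the matrix sugar hyaluronan, was 28.3-fold higher, and Adamts1, which cuts proteoglycans, 4.34-fold higher. The ADAM and ADAMTS proteases as a list went both ways, with 19 of 52 up and 6 down, 3 at least 2-fold higher and 3 at least 2-fold lower. Adam23, Adam19 and Adamts14 fell 3.9-fold, 3.32-fold and 2.26-fold. Of 47 serpins, a family of protease inhibitors, 17 rose and 4 fell, 6 at least 2-fold higher and 1 at least 2-fold lower.

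Markers of fibroblasts moved with these contractile and matrix genes. Of 14 such markers, several of them collagens, 11 rose and 0 fell, with a median of 2.23, and their summed signal, as log2, ran from 9.38 to 9.55 on flox arrays and from 12.72 to 13.05 on null arrays. In flox cells 4 of the 14, Lum, Dcn, Postn and Fap, were dim by their mean, and in null cells Fap alone. Lum read 3.59, 6.67 and 3.57 in null cells, so that only null replicate 2 lay above the lower quartile. Twist1 (0.38 ± 0.17, adjusted p = 0.0863), Meox1 (-0.09 ± 0.08, adjusted p = 0.390) and Lum (1.54 ± 0.66, adjusted p = 0.0710) were not called. Prrx1, a transcription factor of mesenchyme, went from 4.83, 5.03 and 4.88 to 8.91, 9.46 and 8.32. No feeder layer is named in the growth protocol, and the part of other cells in the contractile and matrix results was not tested. Of 10 embryonic stem cell markers 8 fell and 1 rose, 7 of the falls at least 2-fold, with a median of -1.22. Their summed signal ran from 14.36 to 14.38 on flox arrays and from 13.22 to 13.41 on null arrays. Dppa4 fell 14.3-fold, Zfp42 9.89-fold and Nanog 5.49-fold. Pou5f1, which encodes Oct4, fell by 0.65 ± 0.07 and read 10.81, 10.82 and 10.75 in null cells against 11.46, 11.42 and 11.46 in flox cells. Summed signals of the other marker lists ran from 8.97 to 9.14 in flox and 9.66 to 9.89 in null cells for 11 endoderm markers, of which 6 rose and 2 fell, and from 10.38 to 10.48 and 8.92 to 9.12 for 9 trophoblast markers, of which 2 rose and 4 fell. Tfap2c, a factor shared by trophoblast and germ cells, fell by 2.84 ± 0.13, and among the endoderm markers Dab2 rose by 1.92 ± 0.20 and Pdgfra, also a fibroblast marker, by 1.75 ± 0.29. Another feature of Dab2 gave 0.06 ± 0.06 and was not called. Cubn fell by 0.92 ± 0.13, and Afp, Ttr and Amn rose by at most 0.39.

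Secreted signals showed a raised insulin-like growth factor system. Of 13 ligands, receptors, binding proteins and adaptors 11 rose and 0 fell, 6 of them at least 2-fold, with a median of 0.96. Igfbp7 went from 6.60, 6.60 and 6.41 to 9.88, 10.08 and 10.03 (3.46 ± 0.11), and Igfbp3, the main carrier of these growth factors in serum, from 7.99, 8.13 and 8.06 to 10.27, 10.51 and 11.16 (2.58 ± 0.41). Binding proteins made the widest rises, since the ligand Igf2 rose by 0.81 ± 0.16 and the receptor Igf1r by 0.72 ± 0.23, both chosen after their values were seen. Of 14 genes of the epidermal growth factor family 6 rose and 2 fell. The receptor Egfr rose 5.20-fold, from 5.91, 6.00 and 6.27 to 8.42, 8.31 and 8.58. Fgf7, a growth factor made by mesenchyme for epithelium, was dim in flox cells and rose by 4.51 ± 0.17, and Inhba, the subunit of activin A, by 4.78 ± 0.15.

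Guidance cues and their receptors moved in both directions. Of 31 semaphorins, plexins and neuropilins 10 rose and 7 fell, and the share called was 54.8%, against 55.2% of all genes. At least 2-fold higher were 7 (22.6%, against 5.03% of all genes) and at least 2-fold lower 5 (16.1%, against 10.2%). The secreted class 3 members Sema3a (2.36 ± 0.15), Sema3c (2.75 ± 0.15) and Sema3e (2.06 ± 0.22) rose, and the membrane-bound Sema4b (-1.47 ± 0.12) and Sema5a (-1.49 ± 0.10) fell. The neuropilins, receptors of class 3 semaphorins, moved in opposite directions. Nrp1 went from 4.64, 4.73 and 4.39 to 6.97, 6.61 and 6.44, and Nrp2 from 8.71, 8.82 and 8.93 to 7.29, 7.39 and 7.16. In the Notch pathway, of 21 genes 7 rose and 8 fell, with the receptor Notch3 (2.29 ± 0.34) and the target Hes1 (1.87 ± 0.21) higher and Rbpj, the DNA-binding partner of cleaved Notch, 1.22 ± 0.07 lower on the log2 scale. Ephrins were split, with the ligands Efnb2 3.54-fold higher and Efna3 2.14-fold lower.

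Chemokine genes rose more often than they fell. Of 34 chemokines 17 rose and 3 fell, with a median of 0.25. Of all genes 26.5% rose and 28.7% fell, and the dimmer genes had a median of 0.13. At least 2-fold higher were 4 (11.8%, against 5.03% of all genes) and at least 2-fold lower 1 (2.94%, against 10.2%). Only 11 of the 34 were brighter genes, and these held the 4 higher and the 1 lower. The lower one was Ccl25, a chemokine of gut and thymus, which fell 4.38-fold, but another feature of that gene gave -0.50 ± 0.26 and was not called. Ccl2, which draws monocytes, went from 5.28, 4.64 and 4.31 to 7.92, 8.60 and 7.30, and its neighbour Ccl7 from 5.30, 4.90 and 5.34 to 7.72, 8.58 and 7.55. Ptgs2, the inducible enzyme of prostaglandin synthesis and no member of that list, rose by 4.80 ± 0.22, from 5.65, 5.89 and 5.83 to 10.92, 10.50 and 10.33. For these 3 genes the lowest null array lay at least 2 log2 units above the highest flox array. Of 37 interleukin receptor genes 13 rose and 5 fell, with Il4ra at 1.21 ± 0.13, while Il6st, the signal-transducing receptor shared with leukaemia inhibitory factor, fell by 1.16 ± 0.09. The tumour necrosis factor receptor Tnfrsf12a rose by 1.89 ± 0.12.

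Immediate early transcription factors rose together. Of 23 Fos, Jun, Maf, Egr and related genes 17 rose and 0 fell, 5 of them at least 2-fold. Fosb stood at 5.82, 5.84 and 5.78 in flox and at 9.87, 9.27 and 8.66 in null cells, Fos at 5.25, 5.09 and 5.24 against 8.67, 8.64 and 7.71, and Jun at 6.82, 7.09 and 7.17 against 9.26, 9.40 and 9.41. Null replicate 3 was the lowest null array for Fosb and Fos and not for Jun. Atf3, a stress-induced partner of Jun, rose by 1.87 ± 0.18. The AP-1 site TGANTCA, searched on both strands, stood in 8.08% of all windows and in 18 of the 157 genes with a window that rose at least 4-fold (11.5%).

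Klf factors were mostly lower. Of 17 Klf factors 11 fell and 2 rose, 8 of the falls being at least 2-fold, with a median of -0.71. Klf2, a factor of the naive state, went from 10.42, 10.32 and 10.35 to 7.93, 7.48 and 7.59, Klf8 from 9.09, 9.09 and 9.11 to 6.75, 6.94 and 6.68, and Klf9 from 10.46, 10.37 and 10.44 to 8.23, 8.05 and 8.22. Klf6, an early-response member, rose instead by 1.84 ± 0.10. Of 25 Ets factors 4 rose and 11 fell, with a median of -0.18. Ets1 rose 4.97-fold, whereas Spic fell 9.72-fold and the epithelial factor Elf3 fell 7.94-fold. Nuclear receptors were even in number, 12 of 41 up and 13 down, but the falls were deeper. Nr0b1 fell 154-fold, Esrrb 46.4-fold and Nr5a2 26.5-fold, all 3 factors of naive stem cells, while Nr2f2 and Nr3c1, the glucocorticoid receptor, rose 2.29-fold and 2.08-fold. Of 37 Hox genes 20 rose and 2 fell, with a median of 0.32, and of all genes 26.5% rose and 28.7% fell. Only 4 of the 37 were brighter genes, and the dimmer genes as a whole had a median of 0.13. At least 2-fold higher were 2, Hoxc8 and Hoxb9, a share of 5.41% that is near the 5.03% of all genes. That count dropped to 1 without flox replicate 3 or null replicate 2.

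Zinc finger genes named Zfp, many of them KRAB repressors that lie in clusters of near-identical copies, fell more often than they rose. Of 341 measured 52 rose and 158 fell, with a median of -0.24. The list holds 262 brighter genes, and of all brighter genes 26.9% rose and 43.2% fell. At least 2-fold higher were 8 (2.35%, against 7.06% of brighter genes). At least 2-fold lower were 66 (19.4%, against 16.2% of brighter genes and 10.2% of all genes). Zfp640 went from 10.11, 10.02 and 10.11 to 3.67, 3.43 and 3.59, Zfp980 from 10.50, 10.65 and 10.56 to 4.53, 3.96 and 3.74, and Zfp991 from 10.35, 10.19 and 10.20 to 5.68, 5.41 and 5.57. The first 2 were thus bright in flox cells and dim in null cells, and probes of such copies may not tell members apart. Chromosome 4, where Zfp980 and Zfp991 lie, had 7 of its 17 Zfp genes at least 2-fold lower. Chromosome 7 had 17 of 86, chromosome 17 had 7 of 39 and chromosome 8 had 6 of 23. Zfp36, which is no KRAB factor but destabilises mRNAs with AU-rich ends, rose by 1.57 ± 0.17.

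Chromatin modifiers fell. Of 16 DNA methylation and demethylation genes 13 fell and 1 rose. Tet1 and Tet2, which oxidise methylcytosine, went from 11.39, 11.25 and 11.33 to 9.22, 8.83 and 8.82 and from 9.76, 9.79 and 9.84 to 6.39, 5.86 and 6.21. Tet2 fell 12.5-fold and Tet1 5.15-fold, with no overlap. Of 27 Polycomb proteins 17 fell and 2 rose, 7 of the falls at least 2-fold, with a median of -0.61. Rybp (-2.41 ± 0.08) and Pcgf6 (-1.69 ± 0.09), of variant PRC1, fell, as did Cbx7, the chromodomain reader of canonical PRC1 in stem cells (-2.09 ± 0.07), and Ezh1, a methyltransferase of PRC2 (-1.36 ± 0.11).

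Meiotic chromosome genes were lower without an exception in direction among those called. Of 24 genes of the synaptonemal complex, meiotic cohesin and recombination 16 fell and 0 rose, and 15 fell at least 2-fold (62.5% against 10.2% of all genes), with a median of -1.48. Meioc, which keeps germ cells in meiotic prophase, went from 8.82, 8.84 and 8.93 to 3.55, 3.50 and 3.36. Dmc1, the meiotic recombinase, went from 8.35, 8.27 and 8.42 to 5.07, 5.04 and 4.81, and Stag3, a cohesin subunit of meiosis, from 8.30, 8.28 and 8.35 to 5.53, 5.49 and 5.41. The null values of Meioc and of Tex15 (-3.40 ± 0.10), a testis protein of recombination and piRNA silencing, were dim. Only 8 of the family had a mean of at least 6.01 over all 9 arrays, and all 8 of these fell at least 2-fold. That mean takes in the flox values, so a gene bright in flox cells alone can pass. The count of 8 is thus no separate support for the fall.

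Some genes of the piRNA pathway and of the oocyte fell as well. Of 21 Tudor domain and piRNA genes 10 fell and 3 rose, 8 at least 2-fold lower and 2 higher. Mael, Ddx4, the germ cell helicase Vasa, and Tdrd12 fell 13.7-fold, 7.52-fold and 8.49-fold. Tdrkh, a mitochondrial Tudor protein that binds Piwi proteins, rose instead from 4.99, 5.27 and 5.23 to 8.69, 9.39 and 9.34, and Tdrd7 rose 2.96-fold. Of 16 oocyte genes 4 fell, all at least 2-fold, and 2 rose by less than 2-fold, with a median of 0.09, so that the list as a whole was not lower. Zp3, a coat protein of the egg, went from 8.71, 8.69 and 8.60 to 4.91, 4.50 and 4.53, and Ooep, of the subcortical maternal complex, fell by 3.82 ± 0.11. Obox6 fell by 4.61 ± 0.11, but another feature of that gene gave -0.10. Of the 10 Tudor and piRNA genes with a mean of at least 6.01, 5 were at least 2-fold lower and 2 higher. Only 2 oocyte genes had such a mean, and both were at least 2-fold lower. Since the mean takes in the flox values, genes bright in flox cells alone can pass, and these counts are no separate support.

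The E-box CACGTG, read on both strands because it is its own reverse complement, stood in 9.5% of all promoter windows. It stood in 6 of 21 meiotic genes with a window (28.6%) and in 8 of 18 Tudor and piRNA genes (44.4%). Of the 6 meiotic genes with it 5 were at least 2-fold lower, and of the 15 without it 8 were. In the Tudor and piRNA list 4 of 8 genes with it were at least 2-fold lower, and of the 10 without it 2 were lower and 2 higher. The E2F letters GCGGGAA stood in 7.4% of all windows and in 9 of the 21 meiotic genes (42.9%), of which 5 fell at least 2-fold, as did 8 of the 12 without it. The stretches around the E-box are given for 4 genes that fell at least 2-fold, with the box in capitals. Sycp3, a rod protein of the chromosome axis, holds 2 of them and went from 6.42, 6.62 and 6.68 to 3.89, 3.90 and 3.81, and it was chosen after its values were seen.
Mael, chr1:166238922-166238994, minus strand: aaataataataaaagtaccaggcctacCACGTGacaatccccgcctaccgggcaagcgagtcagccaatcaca
Ddx4, chr13:112652311-112652379, minus strand: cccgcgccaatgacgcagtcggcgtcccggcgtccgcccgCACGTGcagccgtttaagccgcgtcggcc
Stag3, chr5:138280299-138280384, plus strand: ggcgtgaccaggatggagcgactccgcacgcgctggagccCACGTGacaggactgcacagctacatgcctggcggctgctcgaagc
Sycp3, chr10:88459483-88459586, plus strand: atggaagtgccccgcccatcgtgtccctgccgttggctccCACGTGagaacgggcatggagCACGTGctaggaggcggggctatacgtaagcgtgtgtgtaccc

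The TCF/LEF letters CTTTGAT, searched on both strands, stood in 580 of the 15614 windows (3.71%). They stood in 14 of 352 genes with a window that fell at least 4-fold (3.98%) and in 3 of 157 that rose at least 4-fold (1.91%). The TATA box letters TATAAA stood in 13.6% of all windows, in 40 of the 157 raised genes (25.5%) and in 44 of the 352 lowered genes (12.5%). These windows hold no distal element, so the counts say nothing about binding elsewhere.

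Transporters and metal handling changed gene by gene. Of 323 solute carriers 87 rose and 106 fell. At least 2-fold higher were 14 (4.33%, against 5.03% of all genes) and at least 2-fold lower 44 (13.6%, against 10.2%). Slc39a8, which imports zinc and manganese, went from 5.03, 4.99 and 4.96 to 10.55, 11.17 and 11.17, whereas Slc39a4, a zinc importer induced by zinc shortage, went from 8.48, 8.40 and 8.53 to 5.96, 6.22 and 5.95. The standard error of the Slc39a8 difference (1.12) is wide because of the spread of the third group in the fit. The metallothioneins Mt1 and Mt2, which store zinc, fell by 2.75 ± 0.24 and 2.86 ± 0.25, and they lie on chromosome 8, whose brighter genes were lower as a group. Slc40a1, the iron exporter ferroportin, rose by 2.68 ± 0.22. Of 40 amino acid transporters 17 fell and 6 rose, with Slc7a1, the carrier of arginine and lysine, 7.65-fold lower and Slc38a4 3.14-fold lower. Slc15a1, the peptide carrier, dropped 11.3-fold, to a dim level.

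Enzymes of serine, glycine and folate metabolism fell in part. Of 19 genes 10 fell and 6 rose, with a median of -0.62. Gldc and Amt, of the mitochondrial glycine cleavage system, went from 10.64, 10.67 and 10.63 to 8.16, 8.49 and 8.21 and from 9.41, 9.49 and 9.43 to 6.76, 7.11 and 7.53. Dld, the subunit this system shares with pyruvate dehydrogenase, rose by 1.18 ± 0.09. Of 22 glutathione S-transferases, enzymes of detoxification, 15 fell and 4 rose, 8 of the falls at least 2-fold, with Gstm4 (-3.06 ± 0.13) and Gstp1 (-2.29 ± 0.12) among them. Glycolysis was even, 7 of 20 genes up and 7 down. Hk2, an entry enzyme, rose 2.89-fold, and the lactate dehydrogenase subunit Ldhb, which favours pyruvate, fell 4.27-fold.

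Nuclear genes for mitochondrial proteins were mostly lower. Of 78 respiratory chain subunits 50 fell and 5 rose, 21 at least 2-fold lower and 2 higher, with a median of -0.59. By complex, 22 of 34 genes fell in complex I (median -0.67), 8 of 9 in complex III (-0.70), 10 of 16 in complex IV (-0.79) and 8 of 15 in ATP synthase (-0.37). Ndufb9 went from 10.33, 10.34 and 10.32 to 8.02, 8.14 and 8.18 and Atp5g1 from 11.79, 11.63 and 11.56 to 9.11, 8.91 and 8.93. Both were clear of overlap, as was Ndufs1, the largest subunit of complex I, which rose from 9.13, 9.29 and 9.27 to 10.54, 10.51 and 10.38. Of 77 mitochondrial ribosomal proteins 47 fell and 12 rose (median -0.46), with Mrpl34 7.03-fold lower and Mrps26 3.01-fold higher. The 59 cytosolic ribosomal proteins did not share that balance, 19 of them up and 27 down with a median of -0.08.

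Genomic span was set beside these lists. Of the brighter members, 53 of 74 respiratory chain, 51 of 77 mitochondrial ribosomal and 55 of 57 cytosolic ribosomal genes belong to the 2817 brighter genes with the shortest spans of 4 classes of near equal size (45 to 9451 bases). Of that class 17.5% fell at least 2-fold (median -0.15), and of the next, of 9453 to 22744 bases, 17.6% (-0.19). The third class had 14.7% (-0.12) and the longest 14.8% (-0.07). From the shortest class to the longest, 5.82%, 5.86%, 7% and 9.58% rose at least 2-fold. Of 36 brighter collagen chains (median 0.74) 0 were in the shortest class and 21 in the longest. The cytosolic ribosomal genes had a median of -0.03. The part of span in these results was not tested.

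Replication, nuclear pore and telomere genes were mostly lower. Of 39 replication origin and fork proteins 30 fell and 4 rose, with a median of -0.55, and 10 fell at least 2-fold (25.6%). Rpa3, of the protein that coats unwound DNA, fell by 2.29 ± 0.16, Pole2, of the leading-strand polymerase, by 1.99 ± 0.10 and Rfc5, of the clamp loader, by 1.96 ± 0.08. Of 20 nucleoporins 16 fell and 2 rose, yet only Nup62cl and Nup214 fell at least 2-fold (10%). Of 13 telomere genes 9 fell and 1 rose, with 1 at least 2-fold lower (7.69%). The brighter genes hold all members of the first 2 lists and 12 of the 13 telomere genes. Of all brighter genes 43.2% fell, 16.2% by at least 2-fold. Terc, the RNA template of telomerase, went from 10.54, 10.43 and 10.59 to 5.75, 6.11 and 6.19, a 22.7-fold fall, while Tert, its catalytic protein, differed by -0.05 ± 0.10 (adjusted p = 0.694) and was chosen after its values were seen. Ribosome biogenesis factors were close to even, with 21 of 58 up, 24 down and a median of -0.07, as were tRNA synthetases, with 7 of 31 up, 8 down and a median of -0.05. Proteasome subunits were even, 15 of 39 up and 14 down, with a change among the catalytic ones. The immunoproteasome subunits Psmb8 and Psmb9 rose 4.57-fold and 2.77-fold, and Psmb5, the constitutive counterpart of Psmb8, went from 12.07, 12.05 and 12.03 to 9.67, 9.81 and 9.65.

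Antigen presentation rose with the immunoproteasome. Of 22 MHC class I and processing genes 12 rose and 3 fell, 8 of them at least 2-fold higher (36.4% against 5.03% of all genes). Erap1, which trims peptides for MHC class I, went from 5.38, 5.44 and 5.63 to 9.11, 8.93 and 9.01. Tap1, of the peptide pump, rose by 1.68 ± 0.21 and Tapbp, which loads MHC molecules, by 1.63 ± 0.29. H2-M5, a non-classical MHC gene, fell by 2.38 ± 0.09. Psmb8 belongs to this list as well. Since MHC genes resemble each other, probes may not tell all members apart.

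Innate antiviral genes parted into a raised and a lowered group. Of 28 interferon-stimulated genes 11 rose and 12 fell, 6 at least 2-fold higher and 7 at least 2-fold lower. The sensors of viral RNA moved in opposite directions. Ifih1, which encodes Mda5, went from 4.28, 4.27 and 4.08 to 6.01, 6.10 and 6.41, and Ddx58, which encodes Rig-I, from 9.64, 9.67 and 9.60 to 7.12, 7.34 and 7.02. Trim25, the ubiquitin ligase that acts on Rig-I, fell from 9.65, 9.72 and 9.73 to 4.54, 4.98 and 4.56, and the membrane proteins Ifitm1 and Ifitm3, which block virus entry, fell 23.4-fold and 6.75-fold. Those lowered genes were bright in flox cells, while Ifih1 was dim there. Oasl2 (2.15 ± 0.35) and Gbp3 (2.04 ± 0.21) rose as well. Of the 13 members with a mean of at least 6.01, 2 were at least 2-fold higher and 7 at least 2-fold lower. That mean takes in the flox values, so members bright in flox cells alone can pass, and this balance is no separate support. An interferon response element, GAAA, any 2 bases and GAAA again on either strand, stood in 3.89% of all windows and in 12 of 23 of these genes (52.2%), of which 2 rose and 4 fell at least 2-fold, against 3 and 3 of the 11 without it.

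Noncoding RNAs of the imprinted region between Dlk1 and Dio3 on chromosome 12 rose. The region expresses Meg3, Rian and a long run of microRNA and small nucleolar RNA genes from the maternal chromosome and the protein genes Dlk1, Rtl1 and Dio3 from the paternal one. Meg3 went from 5.47, 5.23 and 5.27 to 10.02, 9.45 and 10.05 (4.52 ± 0.17, adjusted p = 1.54e-08), and Rian from 4.12, 4.12 and 3.99 to 8.64, 7.62 and 7.34 (3.79 ± 0.27). None of the 3 paternal genes was called higher. Dlk1 differed by -0.12 ± 0.10 (adjusted p = 0.332), Rtl1 by 0.12 ± 0.11 (adjusted p = 0.401) and Dio3 fell by 0.48 ± 0.15 (adjusted p = 0.0216). Rian and the 3 protein genes were chosen after their values were seen.

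Of 40 microRNA genes measured between Meg3 and Dio3, 35 rose and 0 fell, 13 at least 2-fold, with a median of 0.57 and a range of 0.07 to 1.86. In 38 of the 40 all null arrays lay above all flox arrays, which held for 35.5% of all genes, and 25 of the 40 were dim in flox cells. The other 247 microRNA genes had 84 that rose, 25 that fell, 5 at least 2-fold higher and 8 at least 2-fold lower, with a median of 0.17. The feature of a microRNA gene on this array reads its precursor region in total RNA, so it does not measure the mature microRNA, and the extraction kit named in the labels retains short RNA poorly. Mature sequences from RefSeq (GRCm38.p6), which held 262 of the 287 measured microRNA genes, are given for 4 of the region's genes that rose at least 2-fold, with the seed, bases 2 to 8, in capitals, and the 4 seeds differ. Mir329 rose by 1.86 ± 0.09 and Mir380 by 1.76 ± 0.13, Mir679 by 1.70 ± 0.19 and Mir539 by 1.55 ± 0.14, the latter 2 chosen after their values were seen.
mmu-miR-329-3p, chr12:109713541-109713562, plus strand: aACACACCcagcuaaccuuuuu
mmu-miR-380-3p, chr12:109711842-109711863, plus strand: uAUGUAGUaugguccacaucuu
mmu-miR-679-5p, chr12:109715587-109715608, plus strand: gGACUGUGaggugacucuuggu
mmu-miR-539-5p, chr12:109728136-109728157, plus strand: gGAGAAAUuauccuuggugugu

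**Figure D3:**
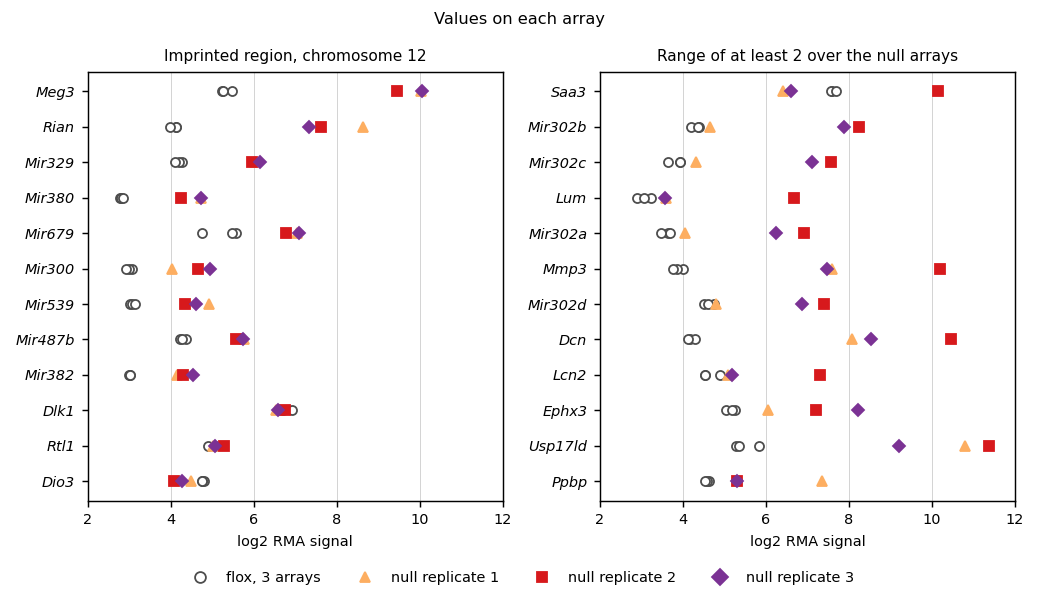
Log2 RMA signal on each array for genes of the imprinted region of chromosome 12 (left) and for the 12 genes whose null arrays span at least 2 log2 units (right), with open circles for flox and a symbol for each null replicate. Meg3 and Rian lie apart from flox while Dlk1 and Rtl1 overlap it, and the microRNA genes Mir302a to Mir302d lie just above the flox arrays in null replicate 1 and well above it in null replicates 2 and 3.

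The microRNA cluster of Mir302 and Mir367 on chromosome 3 differed between null cultures. Mir302c read 3.92, 3.63 and 3.92 in flox cells and 4.32, 7.56 and 7.10 in null replicates 1, 2 and 3, and Mir302a read 3.64, 3.68 and 3.46 against 4.06, 6.91 and 6.25. Null replicate 1 lay close to flox and the other null arrays near 3 units above. Both were called (2.50 ± 0.87, adjusted p = 0.0326, and 2.15 ± 0.71, adjusted p = 0.0261), but the calls were lost without any flox array, without null replicate 2 (1.89 and 1.56) or without null replicate 3 (2.12 and 1.89). Mir302b (2.61 ± 1.02, adjusted p = 0.0518) and Mir302d (1.73 ± 0.69, adjusted p = 0.0554) showed the same order of arrays and were not called, and both were chosen after their values were seen. Larp7, the gene whose intron holds the cluster, read 10.66, 10.58 and 10.60 in null and 10.11, 10.25 and 10.20 in flox cells, so it did not show that order. The Mir17 cluster had a related split. Mir18 read 5.78 in null replicate 1 and 7.02 and 7.05 in the others against 7.96, 7.94 and 8.08 in flox cells, and Mir20a read 5.99, 7.52 and 7.47 against 5.76, 5.99 and 6.28, which makes Mir20a higher than flox only in null replicates 2 and 3. Mir20a was chosen after its values were seen. Mature forms are shown for 3 members, of both clusters, whose seeds hold the letters AAGUGC, shifted by a base in Mir20a. The seeds of mmu-miR-302c-3p (AGUGCUU), mmu-miR-18a-5p (AAGGUGC) and mmu-miR-367-3p (AUUGCAC) do not hold them.
mmu-miR-302b-3p, chr3:127545275-127545297, plus strand: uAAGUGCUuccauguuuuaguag
mmu-miR-302d-3p, chr3:127545665-127545687, plus strand: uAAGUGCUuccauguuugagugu
mmu-miR-20a-5p, chr14:115044183-115044205, plus strand: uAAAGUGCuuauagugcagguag

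Small nucleolar RNA genes and their hosts were mixed. Of 60 measured, 17 rose and 24 fell, 7 at least 2-fold higher and 12 at least 2-fold lower. After quantile normalization the 2-fold counts were 9 each way. Gas5, a host of many such RNAs, rose by 1.41 ± 0.08 and Snord22 by 1.83 ± 0.10, while Snora52, a guide of pseudouridylation, fell 5.31-fold.

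Spread within the null group set some genes apart. Over the 3 null arrays 125 genes ranged over at least 1 log2 unit, against 4 over the 3 flox arrays, and 12 ranged over at least 2, against 0. The median SD was 0.10 over null and 0.08 over flox arrays. Of the 12, 5 had null replicate 2 apart on the high side, namely the matrix genes Dcn, Lum and Mmp3 and the acute-phase genes Saa3 and Lcn2. Mmp3, stromelysin, read 7.58, 10.20 and 7.47 in null cells against a flox mean of 3.87. Saa3 read 6.41, 10.15 and 6.61 against 7.59, 7.57 and 7.69, so that 2 null arrays lay below flox and 1 above, and its difference of 0.11 ± 0.82 was not called. Null replicate 1 alone was high for the platelet chemokine Ppbp, at 7.36 against 5.30 and 5.30. Usp17ld, a deubiquitinase of a multicopy family, read 10.79, 11.37 and 9.21 against 5.27, 5.36 and 5.82, and its copies may share probes. Saa3, Lcn2 and Ppbp were chosen after their values were seen.

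**Figure D4:**
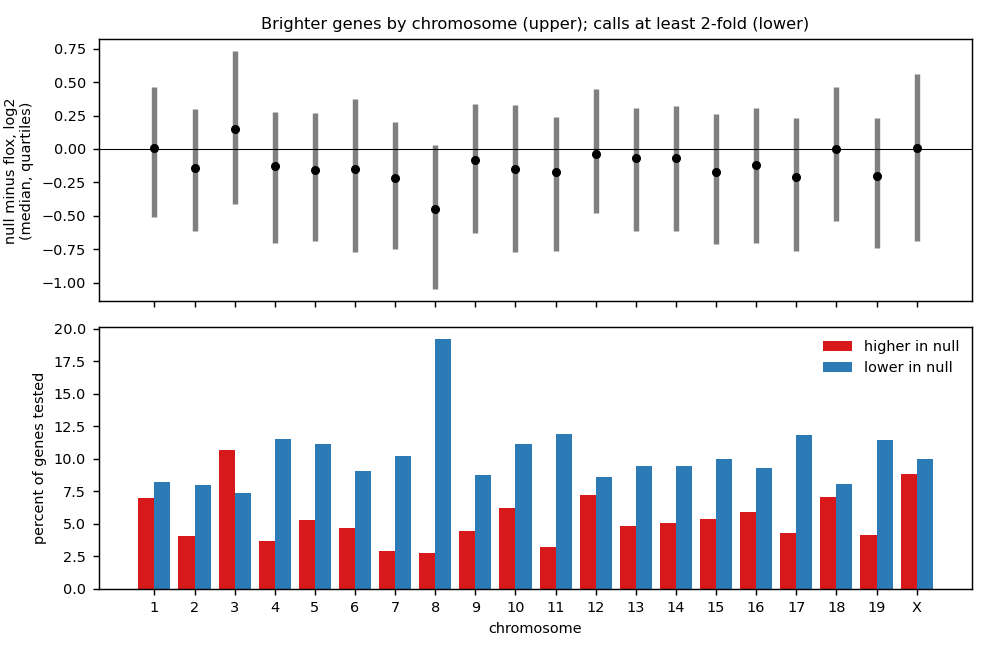
Differences by chromosome, with the median and quartiles of the log2 difference over brighter genes (upper) and the percent of tested genes at least 2-fold higher or lower in null cells (lower). Chromosome 8 has the lowest median, -0.45, with 19.2% of its genes lower, and chromosome 3 the highest, 0.15, with 10.7% higher.

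Chromosomes 8 and 3 stood apart from the rest. On chromosome 8, 183 of 955 genes fell at least 2-fold (19.2%) and 26 rose (2.72%), with a median of -0.45 and quartiles of -1.05 and 0.03 over its 629 brighter genes. On chromosome 3, 101 of 943 genes rose at least 2-fold (10.7%) and 69 fell (7.32%), with a median of 0.15. The medians of the other chromosomes lay between -0.22 and 0.01. Along chromosome 8, in 4 stretches of near equal gene number, the medians were -0.33, -0.45, -0.54 and -0.53. Along chromosome 3 they were 0.16, -0.07, 0.35 and 0.06, so that the shift was not even there. No copy number was measured, so dosage and regulation cannot be told apart. Of the genes above that were called and at least 2-fold apart, Mt1, Mt2, Klf2, Zfp42, Tex15, Mrpl34 and Ccl25 on chromosome 8 were lower. Nrp1 (2.09 ± 0.20) and Efnb2 (1.82 ± 0.26) rose against the median of that chromosome. On chromosome 3, Slc39a8, S100a4, S100a6, S100a10, Anxa5, Tdrkh, Nes, Gbp3, Postn, Mir302a, Mir302c and Mir367 were higher. Mir367 (1.04 ± 0.33) overlapped flox, at 3.03 on null replicate 1 and 3.03 on flox replicate 3. Terc (-4.50 ± 0.11), Tet2 (-3.64 ± 0.19), Gstm4 (-3.06 ± 0.13) and Efna3 (-1.10 ± 0.11) on chromosome 3 were lower.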

How the data were processed

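Total RNA of 9 cultures, 3 of each of 3 genotypes, was hybridised to whole-transcript Affymetrix arrays. The authors made log2 values with RMA, per the submitters' processing notes, which give no version, and the deposited table was used as it stands. Whether all arrays were normalized together is not stated, and the quartiles of the groups differ, so each difference carries that step. Gene symbols came from GEO's annotation of the array. Features with several symbols or none listed were left out of the gene tests.

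The test was limma 3.58.1 (R 4.3.3), with group means fitted by lmFit to the 9 arrays and eBayes moderation on 6 residual and 4.04 prior degrees of freedom, and with Benjamini-Hochberg adjustment over 19938 genes. A gene rose or fell where the adjusted p was under 0.05. Values after ± are limma's standard errors, and the number of arrays limits precision. The fit was tested on simulated data. Figures and counts used Python 3.11.15 and matplotlib 3.10.9.

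The members and the 79 gene lists were chosen with earlier results of these data known. The rule for named genes took the 20 largest rises and falls among called genes without overlap, up to 4 members of a list in each direction among those at least 2-fold apart without overlap, Ctnnb1 and all cell type markers. For lists without such a member it took the one with the smallest adjusted p. Promoter windows, 9 motifs and mature microRNAs came from RefSeq's GRCm38.p6 tables. Alternatives were 19: scaling by quantiles, by array medians and by chromosome medians, leaving out dim genes, another prior, fewer arrays, a replicate block, other features of a gene, and each array left out in turn.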

Additional observations from a re-analysis of the deposited data

Results flagged for a closer look

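Features outside the gene tests carried differences as well, and they are given as values without an explanation. Of 12146 features without a symbol in the annotation used, 964 were called and at least 2-fold higher in null cells and 809 at least 2-fold lower (14.6% together), with a median log2 difference of 0.14, in a limma fit over the features outside the gene tests alone. Of 1621 features with several symbols, 72 were at least 2-fold higher and 142 at least 2-fold lower (13.2%), with a median log2 difference of 0.08. What these features measure was not analysed here.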

How the results depend on the processing

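Under 19 alternatives, 387 of 405 called named genes kept both call and direction, 13 lost the call under at least 1 alternative and 5 changed sign. Leaving out genes under a mean of 6.01 gave 3143 genes higher and 4948 lower, since fewer genes were tested. Centring each array on the median of the tested genes, an alternative chosen after seeing the data, gave 7121 higher and 5205 lower, and centring each chromosome 7067 and 5191. With each array centred on the median of all features the counts were 4604 and 5961, and after quantile normalization 4825 and 5304. The median of all genes was then 0.14, 0.12, 0.02 and 0.00. Leaving out 1 array at a time gave 4281 to 5751 higher and 5254 to 5901 lower, 986 to 1016 at least 2-fold higher and 1978 to 2085 at least 2-fold lower. Ctnnb1 stayed between -0.57 and -0.69. Deviations of same-numbered flox and null arrays correlated weakly (r across genes of -0.03, 0.08 and 0.08, against -0.11 to 0.07 for other pairs). Such values cannot tell whether same-numbered cultures were handled together. The replicate block gave 5530 higher and 5768 lower, with 10814 genes called with and without it and Ctnnb1 at -0.65. With the lowest feature of a gene, Myo9a gave 0.05, Slc39a1 -0.53, Sema4d 0.03, Irs1 -0.01 and Aldh3b3 -0.48, and with each chromosome centred Meox1 gave 0.24 and Hand1 0.28. The causes were not tested. Of 3002 family counts at 2-fold, 2907 stayed within 1.5 times the main count. Detection calls were not used here, so signal over background is unknown.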
